A study of Mus musculus with 12 samples.

Results

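The effect of a high fat diet on pancreatic islets that lack Sirt3 in beta cells was measured by RNA sequencing, as 1 comparison across all genes: 3 libraries from knockout mice fed a high fat diet (HFD KO 1 to 3) against 3 from knockout mice fed a standard diet (STD KO 1 to 3). These 6 libraries, chosen by their titles, are part of a set of 12 that also holds 3 wild type libraries on each diet (STD WT and HFD WT). All animals were male C57BL/6 mice labelled as 40 weeks old, and the knockout mice of both diets carried the beta-cell-selective Sirt3 deletion. The standard diet held 6.2% fat, and 60% of the calories of the high fat diet came from fat. High fat feeding lasted 36 weeks. It followed 6 weeks of standard diet in HFD KO 1 and HFD KO 3, 5 weeks in HFD KO 2 and 4 weeks in each HFD WT library, so that this earlier period differed with genotype. The periods given for the HFD KO mice add up to more than the labelled age. The labels name neither the Cre driver nor the deleted exons. They also leave out whether 1 library equals 1 animal, so p-values describe the spread among these libraries, which may be technical.

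Islets are the endocrine clusters of the pancreas, in which beta cells secrete insulin when glucose metabolism in their mitochondria raises ATP, closes potassium channels and lets calcium in. SIRT3 is an NAD-dependent deacetylase of the mitochondrial matrix that acts on enzymes of fat oxidation, the respiratory chain and antioxidant defence. Long high fat feeding is known to make islets enlarge, raise insulin output and load the endoplasmic reticulum, while an ample supply of sterols and unsaturated fat lowers the activity of SREBP transcription factors, which drive the genes of lipid synthesis.

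Total counts of the 6 knockout libraries lay between 16037709 and 19243495. Insulin transcripts dominated them: Ins2 took 13.2% to 19.7% of counts and Ins1 6.51% to 11.9%, and no marker of the lists of islet or other cells described below was at 0 in all 6 libraries. Sirt3 itself stood at 6.59, 5.97 and 5.86 CPM (counts scaled to library size and composition) in STD KO 1 to 3 and at 7.85, 11.5 and 6.21 CPM in HFD KO 1 to 3, against 9.04 to 11.8 CPM in the 6 wild type libraries. The library labelled HFD KO 2 thus lay inside the wild type range for Sirt3. In Gbp8 (80.6 CPM) and Tph1 (701 CPM), picked after their values were seen, it lay with the other KO libraries and above every wild type library (at most 3.68 and 43.5 CPM). Reads of non-beta cells also count toward Sirt3, and its exons overlap Ric8a and Psmd13 on the other strand, so the level tests the labels only weakly. Between diets Sirt3 did not pass edgeR's test (log2 fold change 0.47, SE 0.22, adjusted p = 0.417).

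In edgeR's quasi-likelihood test over 16076 genes, 7 genes (0.0435%) passed an adjusted p of 0.05, 5 of them higher on the high fat diet and 2 lower. They were Ttyh1, Serpina7, Pdyn, Dlg2 and Eef1a2, which rose, and Gnai1 and Kcnj12, which fell. In none of these 7 genes did the 3 HFD KO libraries overlap the 3 STD KO libraries, compared with 5.91% of all genes without overlap on the higher side and 6.23% on the lower side. At an unadjusted p under 0.05 stood 2010 genes (12.5%), 1236 higher (7.69%) and 774 lower (4.81%). The Wald test of DESeq2 on the same genes passed 140 (0.871%), 92 higher (0.572%) and 48 lower (0.299%), with all 7 among them. Of all libraries, leaving out HFD KO 3 changed the count most. Without it 801 genes passed (4.87% of 16438), 627 higher (3.81%) and 174 lower (1.06%), again with all 7 among them.

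Ttyh1, which encodes a membrane protein of the tweety family best known from the nervous system, had the largest fitted change of the 7 (ENSMUSG00000030428, mm10 chromosome 7, 4119408 to 4136708, plus strand). It stood at 12.7, 15.3 and 14.7 CPM in STD KO 1 to 3 and at 128, 60.0 and 60.9 CPM in HFD KO 1 to 3. Every high fat library was several-fold above every standard diet library, and HFD KO 1 was the highest. The mean went from 14.2 ± 1.37 to 83.0 ± 39.0 CPM (SD, n = 3), a log2 fold change of 2.55 (SE 0.29, adjusted p = 0.032 by edgeR). Exons of 2 predicted genes on the other strand, D030047H15Rik and 9430041J12Rik, overlap it, and reads from them cannot be told apart where counting ignored strand.

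Serpina7 encodes thyroxine-binding globulin, a carrier of thyroid hormone (ENSMUSG00000031271, mm10 chromosome X, 139079257 to 139085236, minus strand). Its levels were 12.3, 10.5 and 11.97 CPM on the standard diet and 99.2, 64.9 and 33.8 CPM on the high fat diet. The high fat libraries spread widely, with HFD KO 3 the lowest of them, yet all lay above the standard diet libraries (log2 fold change 2.51, SE 0.33, adjusted p = 0.032). Serpina7 is also a member of the list of dedifferentiation and disallowed genes, transcripts that mature beta cells keep low.

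Pdyn encodes prodynorphin, the precursor of the dynorphin opioid peptides (ENSMUSG00000027400, mm10 chromosome 2, 129686565 to 129699844, minus strand). It measured 32.3, 29.3 and 34.1 CPM in STD KO and 234, 126 and 139 CPM in HFD KO libraries. The standard diet libraries agreed closely, and the high fat libraries exceeded them all (log2 fold change 2.38, SE 0.32, adjusted p = 0.032). In wild type islets Pdyn was already at 115 ± 42.1 CPM on the standard diet and at 243 ± 47.5 CPM on the high fat diet (SD, n = 3), so that STD KO was the group that stood low.

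Dlg2 encodes a scaffold protein of the membrane-associated guanylate kinase family that clusters channels and receptors (ENSMUSG00000052572, mm10 chromosome 7, 90476672 to 92449247, plus strand). It was measured at 4.07, 5.06 and 5.23 CPM on the standard diet and at 14.5, 11.8 and 14.1 CPM on the high fat diet. Values within each diet lay close together, and the change was 1.49 on the log2 scale (SE 0.19, adjusted p = 0.032). Exons of the predicted genes Gm45159 and Gm45131 overlap it on the same strand.

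Eef1a2 encodes the form of elongation factor 1A found in neurons, muscle and endocrine cells, which brings aminoacyl-tRNA to the ribosome (ENSMUSG00000016349, mm10 chromosome 2, 181147653 to 181157014, minus strand). It stood at 32.9, 41.8 and 29.6 CPM in STD KO and at 84.9, 67.8 and 72.0 CPM in HFD KO libraries. The groups were well separated (log2 fold change 1.11, SE 0.16, adjusted p = 0.040). In wild type islets the same diet gave values in the opposite direction, 30.7 ± 3.26 against 20.9 ± 2.27 CPM (SD, n = 3).

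Of the genes that fell, Gnai1 encodes an inhibitory G protein alpha subunit, which lowers cyclic AMP downstream of receptors such as those for adrenaline and somatostatin (ENSMUSG00000057614, mm10 chromosome 5, 18265135 to 18360355, minus strand). It measured 48.1, 40.3 and 46.9 CPM in STD KO and 26.6, 22.2 and 23.8 CPM in HFD KO libraries. The diets lay well apart, with little spread in either (log2 fold change −0.90, SE 0.12, adjusted p = 0.032). Kcnj12 encodes the inward rectifier potassium channel Kir2.2, which helps to set the resting membrane potential (ENSMUSG00000042529, mm10 chromosome 11, 61022564 to 61071131, plus strand). It was low throughout, at 5.26, 3.53 and 5.86 CPM on the standard diet and 1.42, 1.04 and 1.55 CPM on the high fat diet, without overlap (log2 fold change −1.86, SE 0.25, adjusted p = 0.032).

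**Figure D1:**
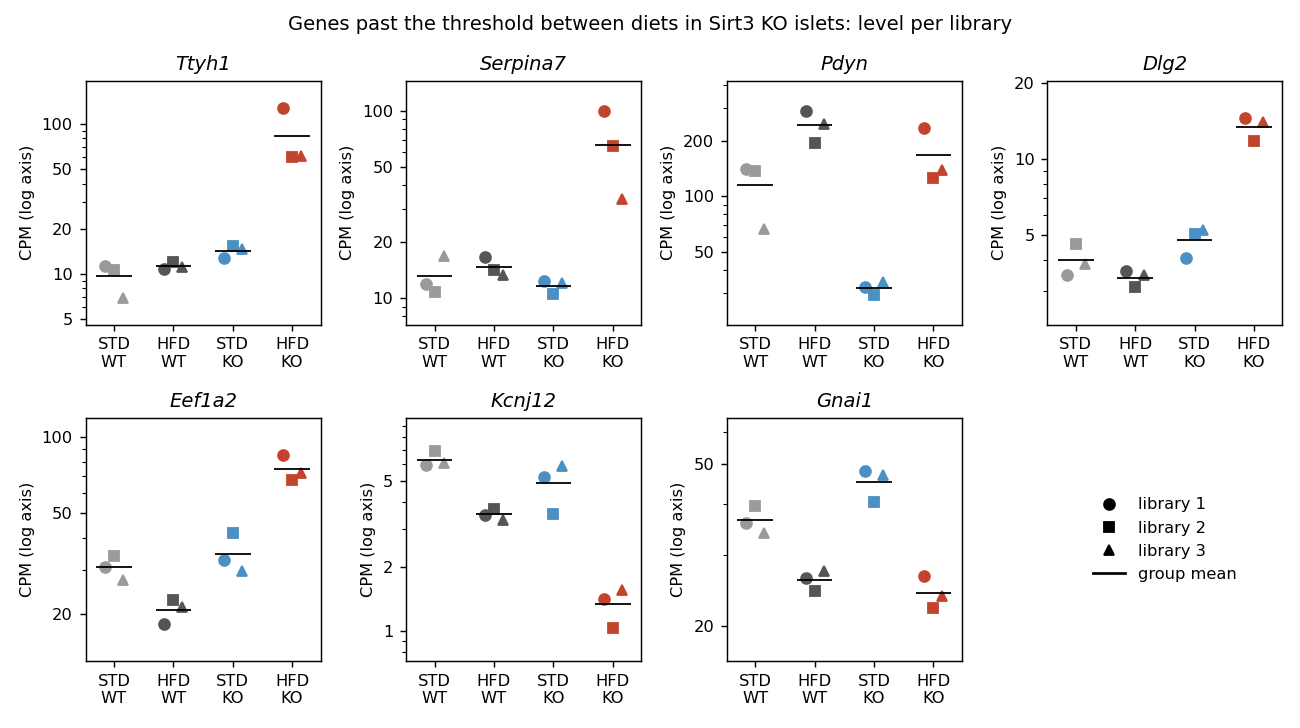
Level of the 7 genes past the threshold in each of the 12 libraries, in CPM on a log axis; points are libraries and lines are group means. In each panel the 3 HFD KO points lie apart from the 3 STD KO points. The WT group means are ordered by diet in the same direction as the KO means in all panels but Dlg2 and Eef1a2. For Ttyh1 and Serpina7 the WT means differ little.

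These calls sat near the threshold. Ttyh1 kept an adjusted p under 0.05 in 6 of the 12 fits that left out 1 library, Pdyn in 3 and the other 5 genes in 2 each. Their log2 fold changes varied far less than their calls over those fits: Ttyh1 ranged from 2.09 to 2.74, Eef1a2 from 1.01 to 1.26 and Gnai1 from −0.97 to −0.84. All 7 calls were lost without STD WT 2, STD KO 1, STD KO 2, STD KO 3, HFD WT 1 or HFD WT 3, and also in a fit of the 6 KO libraries alone.

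The test of the difference between genotypes, the interaction of diet and genotype, passed 0 genes by edgeR (1271 at an unadjusted p under 0.05, 7.91% of 16076; 31 by DESeq2, 0.193%), and the diet passed 0 genes in wild type islets (762 at an unadjusted p under 0.05, 4.74%; 43 by DESeq2, 0.267%). For Eef1a2 the interaction was 1.67 on the log2 scale (SE 0.22, adjusted p = 0.157), the smallest p of any gene. The log2 fold changes in wild type islets were 0.23 for Ttyh1, 0.16 for Serpina7 and −0.23 for Dlg2, whose interactions had adjusted p of 0.376, 0.457 and 0.306. Ttyh1 and Serpina7 had the same sign there as in KO islets. So did Pdyn (1.08), Gnai1 (−0.49) and Kcnj12 (−0.85), and the interaction of each of Pdyn, Gnai1 and Kcnj12 had an adjusted p of 0.621. The 2 diet comparisons share no library, and none of the 7 genes was shown to respond differently in the genotypes.

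Just outside the threshold stood further genes, given here as values. Gabra4, a subunit of the GABA-A receptor, stood at 6.44, 7.62 and 7.67 CPM in STD KO and 26.0, 19.8 and 19.6 CPM in HFD KO libraries (log2 fold change 1.59, adjusted p = 0.147). Dapl1 had a log2 fold change of 1.74 (adjusted p = 0.172) and Serpini1, which encodes neuroserpin, one of 0.80 (adjusted p = 0.193). On the lower side Npy, the appetite-related neuropeptide Y, stood at 14.2, 20.5 and 10.1 CPM against 2.23, 5.11 and 3.20 CPM (log2 fold change −2.09, adjusted p = 0.200). The transcription factor Lmx1b (−1.19, adjusted p = 0.261), the kinase gene Aatk (−0.76, adjusted p = 0.193), the Groucho family co-repressor Tle3 (−0.71, adjusted p = 0.293) and the potassium channel partner Dpp6 (−0.81, adjusted p = 0.293) were further genes of small p on that side. Each of these 8 genes was separated between diets without overlap and passed in DESeq2 (adjusted p of at most 0.016). In wild type islets Gabra4 (0.98), Serpini1 (0.25), Npy (−1.44) and Dpp6 (−0.43) had the same sign. Dapl1 (−0.14), Lmx1b (0.46), Aatk (0.11) and Tle3 (0.20) had the opposite sign there. None of their interactions passed in edgeR (adjusted p of at least 0.478).

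HFD KO 3 did not lie with the other 2 high fat libraries on the first principal component, but not all measures set it apart. The r of log2 CPM was 0.964 between HFD KO 1 and HFD KO 3, 0.959 between HFD KO 1 and HFD KO 2 and 0.953 between HFD KO 2 and HFD KO 3. Scores on the second component (23.9% of the variance) were 39.1, −27.7 and 14.3 in HFD KO 1 to 3. On the first principal component of log2 CPM, which held 32.7% of the variance, HFD KO 1 and HFD KO 2 scored 24.1 and 53.7, HFD KO 3 scored −10.5, and the STD KO libraries scored −36.4, 8.55 and −39.4. For the 627 genes called higher without it, HFD KO 3 exceeded all 3 STD KO libraries in 162 (25.8%), and its median log2 ratio to their mean was 0.04, against 0.70 in HFD KO 1 and 1.002 in HFD KO 2. For the 174 genes called lower it lay below all 3 in 78 (44.8%), with a median of −0.16 against −0.70 and −0.76. Over all 16438 genes of that fit, HFD KO 3 was above all 3 STD KO libraries in 24.5% and below them in 22.3%, so its share was close to that of all genes among those called higher and above it among those called lower. Those genes were chosen with the STD KO libraries, HFD KO 1 and HFD KO 2, but without HFD KO 3. The choice itself set HFD KO 1 and HFD KO 2 apart from STD KO. Setting HFD KO 3 against them in those genes therefore cannot show whether it is unusual.

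**Figure D2:**
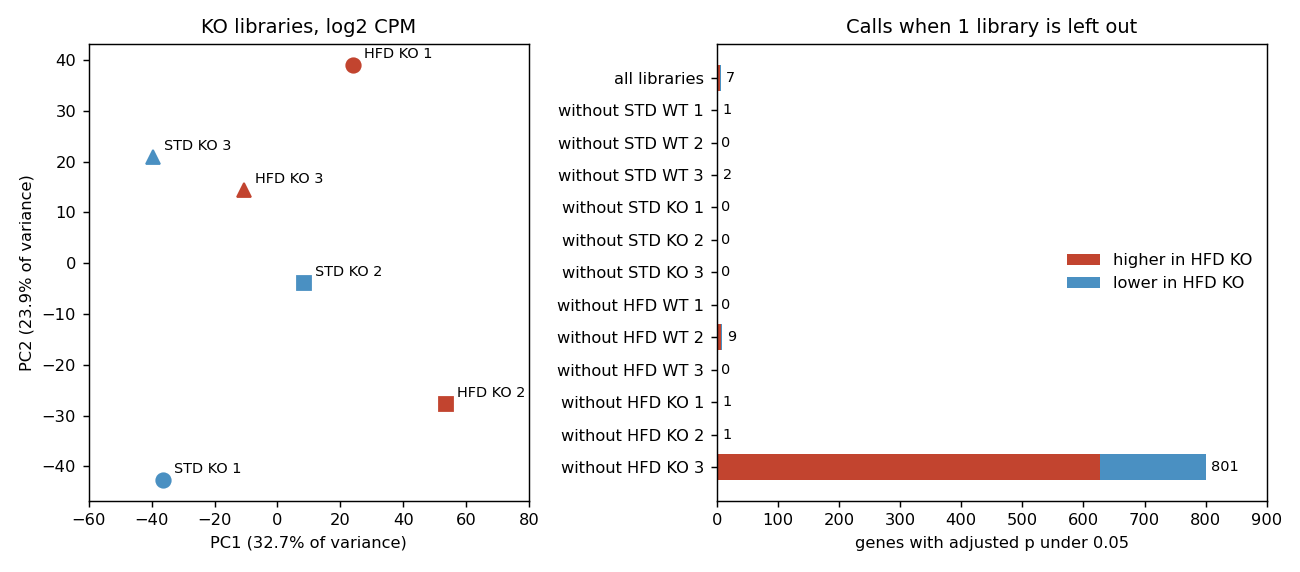
Left, scores of the 6 KO libraries on the first 2 principal components of log2 CPM, in arbitrary units; right, number of genes with an adjusted p under 0.05 (edgeR) between diets in KO islets with all libraries and with each library left out. HFD KO 3 lies within the range of the STD KO libraries on the first component. The count is 801 without it, against 0 to 9 when any other library is left out.

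Across genes, the log2 fold change in KO islets fell with gene length (Spearman's rho −0.34, against 0.06 in wild type), and its median was 0.19 in the 4019 shortest genes (median length 908 bases) and −0.17 in the 4019 longest (median 3442 bases). Among genes called without HFD KO 3, 391 of the shortest were higher and 10 lower, while 26 of the longest were higher and 98 lower. The libraries deviated from the average with length in different ways: rho was 0.35, −0.17 and 0.41 in STD KO 1 to 3 and −0.20, −0.48 and 0.34 in HFD KO 1 to 3, so HFD KO 3 resembled STD KO 1 and STD KO 3 in this respect. After correcting each library for its trend with length, 6 genes passed (0.0373%), Pdyn being the one lost, and 455 passed without HFD KO 3 (2.77%; 353 higher, 2.15%, and 102 lower), of which 371 were among the 801.

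The lists of genes below were compared by counts and medians beside all genes tested, whose median log2 fold change was −0.03. At an unadjusted p under 0.05, 7.69% of all genes were higher and 4.81% lower. Without overlap, 5.91% were higher and 6.23% lower. Of all their members only Serpina7 passed the threshold, so the members named are given as values, and those beyond the smallest p of a list were picked after their values were seen. In bulk islets, fewer cells of a type and less RNA per cell cannot be told apart.

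Sterol genes were lower in the high fat libraries. Of 25 genes of cholesterol synthesis and uptake, 23 had a negative log2 fold change, 7 were lower at an unadjusted p under 0.05 and 0 higher (4.81% and 7.69% of all genes), and the median was −0.26. In 9 of the 25 the high fat libraries all lay below the standard diet libraries, and in 1, Ebp, above them (6.23% and 5.91% of all genes). Stard4, which moves cholesterol between membranes, stood at 28.6, 20.0 and 24.9 CPM in STD KO and at 13.7, 13.8 and 15.2 CPM in HFD KO libraries (log2 fold change −0.78, SE 0.15, adjusted p = 0.200). Its high fat values lay close together and below the standard diet range. It was 1 of 2 members that DESeq2 called (adjusted p = 0.00381).

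Srebf2, the transcription factor that drives sterol synthesis, measured 124, 101 and 139 CPM against 51.2, 74.2 and 95.1 CPM (log2 fold change −0.72, adjusted p = 0.340). Hmgcs1, the synthase of an early step of the pathway, had a log2 fold change of −0.61 (adjusted p = 0.329), the same sign as its regulator. In all 7 members at an unadjusted p under 0.05, each high fat library lay below the STD KO mean, with HFD KO 3 nearest to it. Without HFD KO 3, 4 members passed as lower (Stard4 and Srebf2 among them; 1.06% of all genes were called lower there). The list median was −0.25 after correction for gene length, and in wild type islets it was 0.18. The interaction was negative at an unadjusted p under 0.05 for 10 of the 25 members and positive for 1 (4.12% and 3.78% of all genes), and none passed after adjustment.

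The classical sterol regulatory element that SREBP proteins bind was looked for in the promoters of these genes, as the sequence motif tied to the pathway whose members moved together in sign. The letters TCACCCCAC were searched on both strands in the 250 bases before each gene start of RefSeq (GRCm38.p6). They were found in 163 of 32851 promoters (0.496%) and, counted per gene instead of per promoter, in 1 of the 17 list genes with a promoter there, Hmgcs1. Its promoter is at chr13:119690101-119690350 on the plus strand, and the match, in capitals, starts 137 bases before the gene start.
Hmgcs1: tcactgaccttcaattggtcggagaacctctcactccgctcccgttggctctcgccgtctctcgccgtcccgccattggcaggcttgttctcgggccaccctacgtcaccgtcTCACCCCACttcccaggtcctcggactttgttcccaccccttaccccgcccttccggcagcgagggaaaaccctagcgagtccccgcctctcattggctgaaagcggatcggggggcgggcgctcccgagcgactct
This match is a description of the letters, and binding was not measured.

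Genes that make and desaturate fatty acids followed the same sign. Of 21 genes of fatty acid and triglyceride synthesis, 19 had a negative log2 fold change, 7 were lower at an unadjusted p under 0.05 and 0 higher, and the median was −0.49, the lowest of the 32 lists. Scd2, a stearoyl-CoA desaturase, stood at 94.6, 89.1 and 101 CPM on the standard diet and at 33.9, 37.0 and 66.9 CPM on the high fat diet (log2 fold change −1.04, SE 0.22, adjusted p = 0.293). The standard diet libraries were uniform, and HFD KO 3 lay between them and the other high fat libraries. Fads1, the delta-5 desaturase, stood at 67.1, 55.6 and 51.9 CPM against 37.9, 32.0 and 46.6 CPM (−0.58, adjusted p = 0.295), and Srebf1, which drives this pathway, at 87.3, 75.5 and 80.2 CPM against 44.1, 46.5 and 72.2 CPM (−0.58, adjusted p = 0.358). Scd2 and Fads1 were called lower by DESeq2 and without HFD KO 3. Dgat2, which forms triglyceride, had the lowest log2 fold change of those 7 (−1.61, adjusted p = 0.349) but rested on STD KO 1, at 20.9 CPM against 3.19 and 6.06 CPM in the other standard diet libraries. The list median in wild type islets was 0.03.

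**Figure D3:**
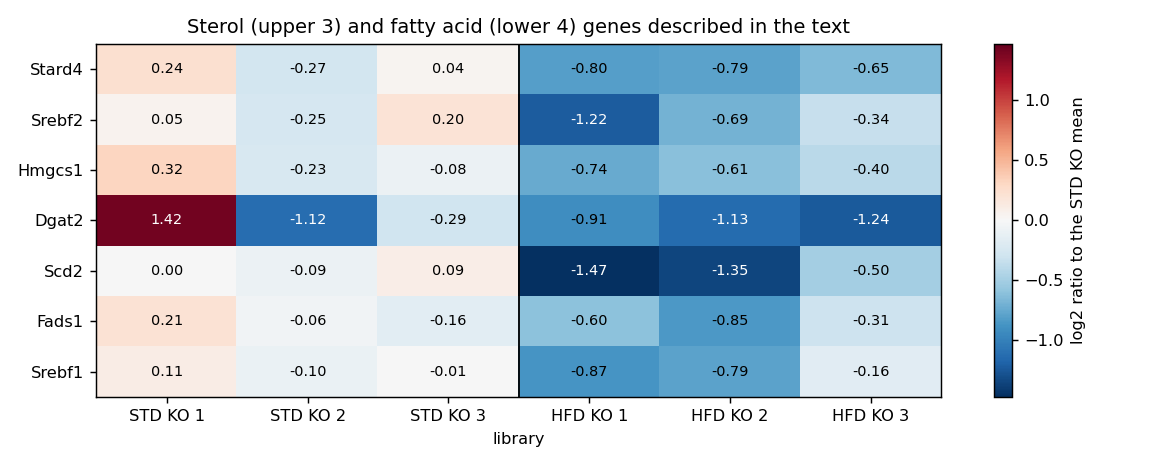
Log2 ratio of each KO library to the STD KO mean (log2 of CPM + 0.5) for 3 sterol genes and 4 fatty acid genes described in the text, each with an unadjusted p under 0.05; blue is lower and red higher. All 3 HFD KO libraries are below 0 for all 7 genes shown, HFD KO 3 is the closest to 0 in all of them but Dgat2, and Dgat2 varies among the STD KO libraries.

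Genes of fat uptake and burning had no common sign. Cd36, the fatty acid transporter of the plasma membrane, stood at 12.2, 12.1 and 16.8 CPM in STD KO and at 57.7, 33.2 and 30.4 CPM in HFD KO libraries. The groups did not overlap and HFD KO 1 was the highest (log2 fold change 1.56, SE 0.28, adjusted p = 0.193; DESeq2 adjusted p = 0.000108). Of the 34 genes of fatty acid uptake and oxidation, 21 had a positive and 13 a negative log2 fold change. At an unadjusted p under 0.05, 5 were higher and 2 lower (7.69% and 4.81% of all genes). Without overlap, 5 were higher and 0 lower (5.91% and 6.23% of all genes). The median was 0.14, and 0.09 in wild type islets. Those higher at an unadjusted p under 0.05 included the carnitine carrier Slc25a20 (0.54) and the beta-oxidation enzymes Acadvl (0.35) and Hadhb (0.32). The adjusted p of these lay between 0.340 and 0.351.

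Respiratory chain genes carried the highest median of any list with more than 6 genes. Of 75 nuclear genes of the respiratory chain and ATP synthase, 74 had a positive log2 fold change, 43 were higher at an unadjusted p under 0.05 and 0 lower, and the median was 0.52 (0.03 in wild type islets). The library medians relative to the STD KO mean were 0.61 in HFD KO 1, 0.88 in HFD KO 2 and −0.08 in HFD KO 3, against −0.10, 0.26 and −0.16 in STD KO 1 to 3. The higher level thus stood in 2 libraries, and HFD KO 3 lay within the standard diet range. Without HFD KO 3 the median was 0.79 and 43 members were called higher (3.81% of all genes were), whereas without HFD KO 2 it was 0.28 with 0 called (1 gene in all, 0.00609%).

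These genes are short, with a median length of 763 bases against 1799 for all genes tested. After correction for gene length the list median was 0.28, and 0.42 with 22 members called when HFD KO 3 was also left out. The complex IV subunit Cox4i1 stood at 133, 161 and 127 CPM against 221, 315 and 119 CPM (0.64, adjusted p = 0.368), where HFD KO 3 lay below all 3 standard diet libraries. Groups overlapped in all but 3 of the 75 genes, which were higher, while 5.91% of all genes were higher without overlap. The 12 mitochondrially encoded mRNAs had a median of 0.26, 0.07 after correction for length, with 0 at an unadjusted p under 0.05.

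Enzymes that feed the chain had a median nearer to that of all genes. Of 30 genes of the tricarboxylic acid cycle and pyruvate entry, 7 were higher and 1 lower at an unadjusted p under 0.05, with a median of 0.06. Fumarase, Fh1, stood at 51.6, 75.7 and 58.4 CPM against 110, 106 and 89.0 CPM, without overlap (log2 fold change 0.72, adjusted p = 0.293; DESeq2 adjusted p = 0.0149). Among 28 genes of glycolysis and hypoxia 3 were higher and 3 lower (median −0.05), the hypoxia-responsive mitophagy receptor Bnip3 being that of smallest p (0.89, adjusted p = 0.340).

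Antioxidant genes were of mixed sign, 19 of 27 positive and 8 negative. Without overlap, 2 were higher and 2 lower. Of the 27, 4 were higher and 1 lower at an unadjusted p under 0.05 (median 0.25, and 0.11 after correction for length). The 4 were the glutathione peroxidase Gpx1 (log2 fold change 0.85) and the peroxiredoxins Prdx1 (0.70), Prdx2 (0.79) and Prdx4 (0.69), with adjusted p of 0.340 to 0.344. As with the respiratory chain, HFD KO 3 stood near the standard diet level: Gpx1 measured 150, 182 and 125 CPM against 278, 397 and 153 CPM. Metallothionein Mt1, which binds zinc and copper, went the other way in all 3 high fat libraries, at 498, 365 and 370 CPM against 120, 168 and 141 CPM (−1.52, SE 0.48, adjusted p = 0.340).

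**Figure D4:**
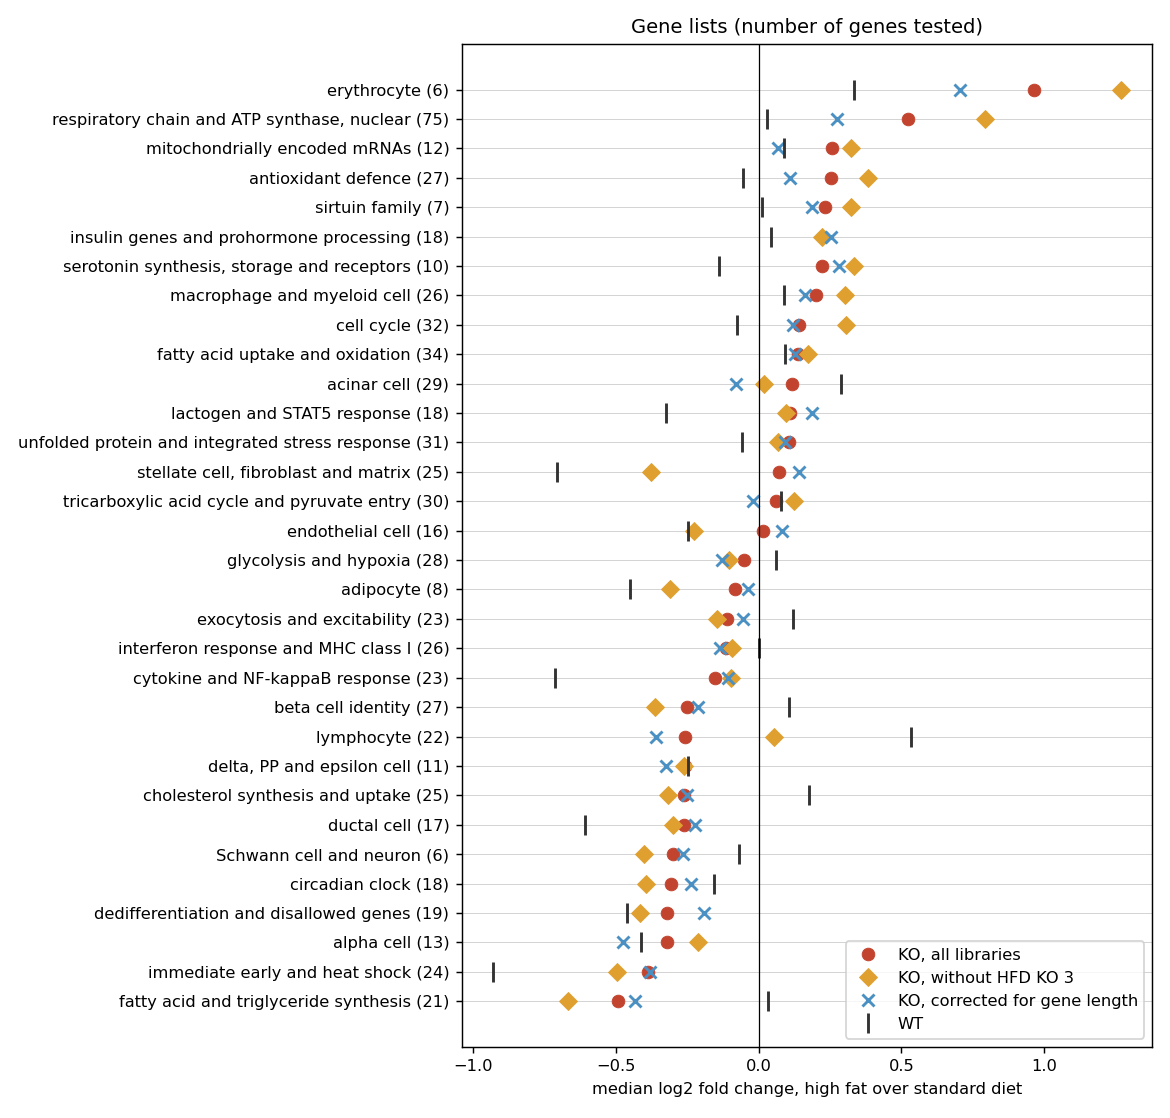
Median log2 fold change of each of the 32 gene lists, high fat over standard diet, in KO islets with all libraries (circles), without HFD KO 3 (diamonds) and corrected for gene length (crosses), and in WT islets (bars); the number of genes tested is in brackets. The respiratory chain list moves from 0.52 to 0.28 with the length correction, while the fatty acid synthesis (−0.49) and cholesterol (−0.26) lists stay below 0 in all 3 KO settings and above 0 in WT.

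The beta cell's own programme was slightly lower and its main products were not. Of 27 beta cell identity genes, 22 had a negative log2 fold change, 7 were lower and 1 higher at an unadjusted p under 0.05, and the median was −0.25 (0.11 in wild type islets). In 9 of the 27 the high fat libraries all lay below the standard diet libraries (6.23% of all genes). Nkx6-1, a transcription factor that keeps beta cell identity, stood at 416, 410 and 467 CPM against 254, 225 and 350 CPM (log2 fold change −0.64, adjusted p = 0.358). Pdx1, the master regulator of the insulin gene, measured 146, 155 and 137 CPM against 116, 105 and 123 CPM (−0.35, adjusted p = 0.368), and Neurod1 (−0.41), Foxa2 (−0.39) and Insm1 (−0.42) had like values. Such shifts were small, and none of the 27 passed in DESeq2. Mafa (−0.22) and the glucose transporter Slc2a2 (−0.49) overlapped between diets, with adjusted p of 0.647 and 0.497, and Ucn3 (−0.27, adjusted p = 0.576) did not overlap. Hopx was the member on the higher side (0.57, adjusted p = 0.340).

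Insulin and amylin transcripts were higher in HFD KO 1 and HFD KO 2. Ins1 stood at 65214, 94220 and 57077 CPM against 124850, 131690 and 76930 CPM (log2 fold change 0.62, adjusted p = 0.422), and Ins2 at 141760, 193930 and 115570 CPM against 207700, 199390 and 150440 CPM (0.31, adjusted p = 0.704). HFD KO 3 lay inside the standard diet range for both. Iapp, which encodes amylin, had a log2 fold change of 0.83 (adjusted p = 0.349), and the neuropeptide-related granule protein Vgf one of 0.86 (adjusted p = 0.351). Over the 18 insulin and prohormone genes 3 were higher and 0 lower at an unadjusted p under 0.05 (median 0.23), and over the 23 genes of exocytosis and excitability 1 was higher, the sodium channel Scn3a (0.78, adjusted p = 0.358; median −0.11).

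Most markers of dedifferentiation had a negative sign, while those of smallest p were higher. Of 19, 14 had a negative log2 fold change and 5 a positive one, and the list median was −0.32. In wild type islets 16 were negative and the median was −0.46. Serpina7 was the only one to pass, and 3 were higher and 0 lower at an unadjusted p under 0.05. Aldh1a3, a retinaldehyde dehydrogenase known as a marker of failing beta cells, stood at 1.39, 3.07 and 2.39 CPM in STD KO and 11.6, 9.74 and 18.4 CPM in HFD KO libraries. HFD KO 3 was the highest here and the groups did not overlap (log2 fold change 2.54, SE 0.62, adjusted p = 0.295; DESeq2 adjusted p = 0.00426; 1.42 in wild type islets). Fabp4, a fatty acid binding protein, was the other, at 9.38, 17.4 and 15.5 CPM against 38.8, 35.0 and 29.4 CPM (1.29, adjusted p = 0.293). Fabp4 is also an adipocyte marker. The 12 adipocyte genes, of which 8 were tested, summed to 169 to 192 CPM in STD KO and 132 to 185 CPM in HFD KO libraries. The median of the 8 was −0.08, and the part of such cells in Fabp4 was not tested.

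The lactogen and STAT5 response, genes that prolactin switches on in islets, had a small median change in KO islets. In 5 of its 18 genes the high fat libraries all lay above the standard diet libraries, and in 0 all below (5.91% and 6.23% of all genes). Of 18 genes 1 was higher and 0 lower at an unadjusted p under 0.05, with a median of 0.11 (−0.32 in wild type islets). That gene was Gbp8, a guanylate-binding protein, at 35.3, 44.1 and 38.5 CPM against 97.4, 80.6 and 79.1 CPM, without overlap (log2 fold change 1.12, SE 0.26, adjusted p = 0.293; DESeq2 adjusted p = 0.00547). Gbp8 overlaps exons of Gbp9 and Gbp4, near copies between which counting could split reads. Tph1, the enzyme of serotonin synthesis, stood at 382, 595 and 390 CPM against 1149, 701 and 825 CPM, all higher but with a wide fitted error (0.97, SE 1.01, adjusted p = 0.729). The interaction was positive for 6 members and negative for 1 at an unadjusted p under 0.05 (3.78% and 4.12% of all genes), with adjusted p of 0.621 for each. Wild type levels were low for Gbp8 (1.07 to 3.68 CPM). For Tph1 they were 0.70 to 1.33 CPM except in STD WT 3, at 43.5 CPM. Its wild type log2 fold change (−3.84) and its interaction (4.81, SE 1.64) thus rested on STD WT 3. The 10 genes of serotonin synthesis, storage and receptors had a median of 0.22 and 0 at an unadjusted p under 0.05.

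Some chaperone genes of the endoplasmic reticulum had higher values on the high fat diet. Of 31 stress response genes (unfolded protein and integrated), 7 were higher and 1 lower at an unadjusted p under 0.05 (7.69% and 4.81% of all genes). Without overlap, 8 were higher and 3 lower (5.91% and 6.23% of all genes). The median was 0.11, and −0.06 in wild type islets. The list as a whole was not apart in each library: its median ratio to the STD KO mean was −0.06 in HFD KO 2, below STD KO 2 (0.15) and STD KO 3 (0.05). Hspa5, the main chaperone of this compartment, stood at 1344, 1942 and 1560 CPM against 2729, 2061 and 2200 CPM (log2 fold change 0.53, adjusted p = 0.351). Derl3, which helps to remove misfolded proteins, measured 40.3, 55.0 and 44.4 CPM against 99.7, 63.2 and 77.7 CPM (0.78, adjusted p = 0.3005; DESeq2 adjusted p = 0.0339). Here HFD KO 3 lay with the other high fat libraries. Dnajb9 (0.74), Sdf2l1 (0.71), Manf (0.65), Creld2 (0.54) and Pdia6 (0.50), helpers of folding or secreted stress proteins, were the others, with adjusted p of 0.340 to 0.351. Sesn2, a target of the integrated stress response, was the lower one (−0.40, adjusted p = 0.340).

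Hspa1a, an inducible HSP70, stood at 45.8, 81.4 and 73.6 CPM against 16.01, 30.5 and 33.9 CPM (log2 fold change −1.32, SE 0.30, adjusted p = 0.293) and its near-identical neighbour Hspa1b, with which it can share reads, at 82.4, 132 and 145 CPM against 26.5, 49.7 and 55.9 CPM (−1.44, adjusted p = 0.293). All high fat values lay below all standard diet values in both genes, and DESeq2 called both (adjusted p = 0.0103 for Hspa1a and 0.00927 for Hspa1b). Over the 24 immediate early and heat shock genes, 23 had a negative log2 fold change, 3 were lower and 0 higher at an unadjusted p under 0.05, and the median was −0.39. In HFD KO 3 the list's median ratio to the STD KO mean was −0.12, inside the STD KO range of −0.26 to 0.34. The same list had a lower median in wild type islets, −0.93.

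Clock output genes were lower as well. Of 18 circadian clock genes 7 were lower and 0 higher at an unadjusted p under 0.05, with a median of −0.31 (−0.16 in wild type islets). Nr1d1, the nuclear receptor REV-ERB alpha that represses Bmal1, stood at 56.2, 49.2 and 38.8 CPM against 20.2, 17.2 and 28.2 CPM (log2 fold change −1.13, SE 0.27, adjusted p = 0.293), though its exons overlap Thra on the other strand. Hlf measured 14.3, 11.9 and 10.6 CPM against 5.01, 4.21 and 6.50 CPM (−1.22, adjusted p = 0.293), and its relatives among the PAR-domain transcription factors, Dbp (−1.16) and Tef (−0.77), had adjusted p of 0.350 and 0.340. None of these 4 overlapped between diets, although for Dbp the margin was narrow, with STD KO 3 at 11.3 CPM and HFD KO 2 at 11.2 CPM. Of the 18, DESeq2 and the fit without HFD KO 3 each called Nr1d1 and Hlf. In wild type islets the log2 fold change was −0.92 for Nr1d1 and −0.34 for Hlf. Their interactions had adjusted p of 0.878 and 0.621 by edgeR. The labels do not give the hour of sampling.

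The E-box CACGTG, to which the clock activators bind, was looked for on both strands in the same promoter windows, because the output genes of the clock are known to be driven through it. It was present in 1978 of 32851 promoters (6.02%) and in a promoter of 5 of the 16 clock genes matched there, Bhlhe41, Ciart, Cry1, Per1 and Tef. The former count is per promoter and the latter per gene, and a gene can have several promoters, so these shares are not directly comparable. Tef is shown since it is the one of these 5 with the smallest p in the diet comparison. This promoter, at chr15:81811164-81811413 on the plus strand, holds the match in capitals 138 bases before the gene start.
Tef: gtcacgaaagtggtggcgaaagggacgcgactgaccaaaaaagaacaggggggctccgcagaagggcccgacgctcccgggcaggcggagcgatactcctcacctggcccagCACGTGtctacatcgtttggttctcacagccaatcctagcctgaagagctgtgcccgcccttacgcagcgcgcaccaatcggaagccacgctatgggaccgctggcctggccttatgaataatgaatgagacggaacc
Neither Nr1d1 nor Hlf held these letters in the windows searched, which says only that they are absent from those bases.

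**Figure D5:**
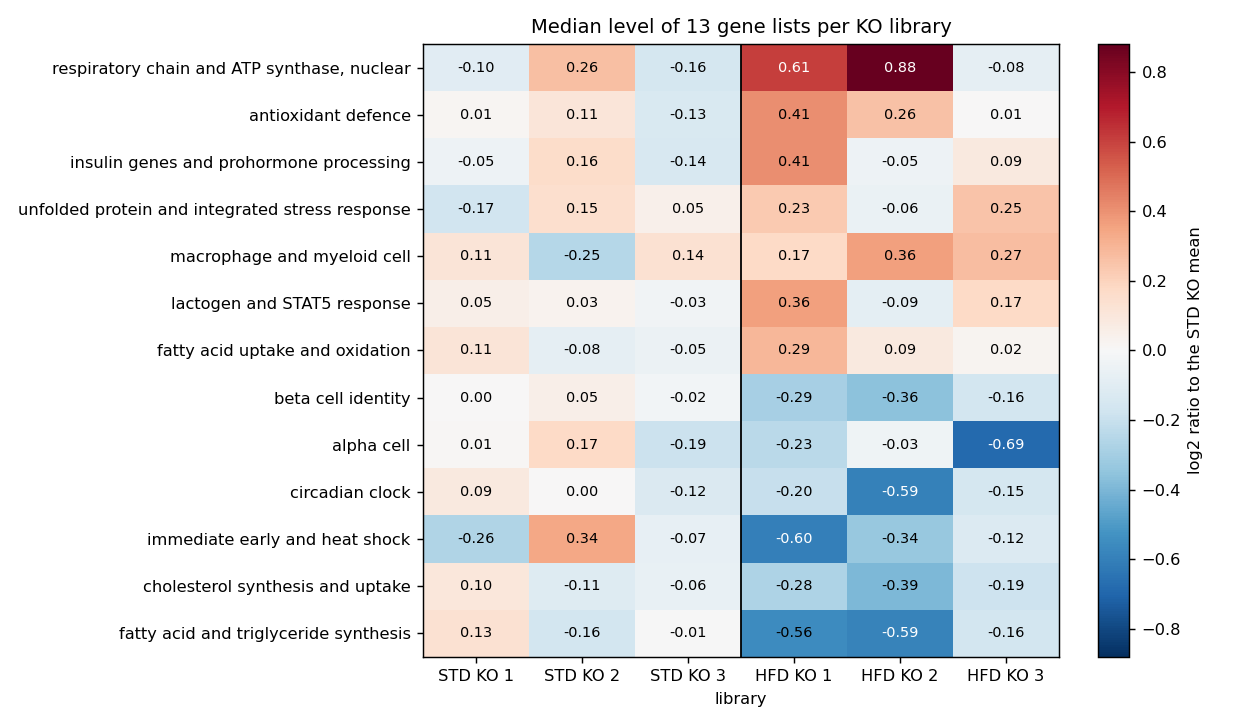
Median log2 ratio of 13 gene lists in each KO library to the STD KO mean. The respiratory chain list is 0.61 and 0.88 in HFD KO 1 and HFD KO 2 but −0.08 in HFD KO 3, whereas the cholesterol, clock and beta cell identity lists lie below each STD KO library in all 3 high fat libraries. In HFD KO 3 the fatty acid synthesis list (−0.16) is level with STD KO 2, and the heat shock list (−0.12) is inside the STD KO range.

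Markers of other cells were measured beside these results. Of 26 macrophage and myeloid genes 5 were higher and 1 lower at an unadjusted p under 0.05 (median 0.20). Without overlap, 7 were higher and 1 lower (5.91% and 6.23% of all genes). Their summed level ran from 1338 to 1889 CPM in STD KO and from 1206 to 2289 CPM in HFD KO libraries. Trem2, a lipid-sensing receptor of tissue macrophages, stood at 1.80, 2.22 and 1.32 CPM against 6.92, 3.94 and 4.12 CPM (log2 fold change 1.49, adjusted p = 0.295), and Gpnmb, a glycoprotein of lipid-laden macrophages, at 2.42, 0.80 and 5.42 CPM against 35.8, 6.63 and 14.9 CPM (2.72, adjusted p = 0.340). DESeq2 called both (adjusted p = 0.0366 for Trem2 and 0.01599 for Gpnmb). The complement gene C1qa was the member lower at an unadjusted p under 0.05 (−0.37, adjusted p = 0.343). The part of macrophages in Cd36, which they also express, was not tested.

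The 6 erythrocyte genes tested had the highest list median, 0.97. The 7 erythrocyte genes found, tested or not, summed to 77.8 to 107 CPM in STD KO and 85.2 to 300 CPM in HFD KO libraries. Hbb-bs stood at 104, 184 and 43.9 CPM in HFD KO 1 to 3, the same order of libraries as the respiratory chain genes, and the part of red blood cells in that list was not tested. The 31 acinar genes summed to 12040 to 32155 CPM in STD KO and 21605 to 28536 CPM in HFD KO libraries (29 tested, 2 lower at an unadjusted p under 0.05, median 0.12). Medians were −0.26 for 17 ductal, 0.02 for 16 endothelial, 0.07 for 25 stellate cell, fibroblast and matrix, and −0.30 for 6 Schwann cell and neuron genes. Stellate genes spread widely among the high fat libraries, with library medians of −0.26, −0.66 and 0.68 in HFD KO 1 to 3. The 22 lymphocyte genes had a median of −0.26, and their 1 member at an unadjusted p under 0.05, Gzma, rested on STD KO 3 at 15.3 CPM against 0.23 to 0.83 CPM in the other 5 KO libraries.

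Among the other endocrine cells, 3 of 13 alpha cell genes were lower and 2 higher at an unadjusted p under 0.05 (median −0.32, and −0.41 in wild type islets). Without overlap, 5 were lower and 1 higher (6.23% and 5.91% of all genes). Glucagon itself, Gcg, overlapped between diets (log2 fold change 0.30, adjusted p = 0.752). HFD KO 3 had the lowest alpha cell median, −0.69. Somatostatin, Sst (−0.32, adjusted p = 0.656), and pancreatic polypeptide, Ppy (0.55, adjusted p = 0.736), did not pass, nor did any of the 11 delta, PP and epsilon cell genes at an unadjusted p under 0.05. Proliferation, cytokine and interferon genes gave little: 4 of 32 cell cycle genes were higher and 1 lower (median 0.14), 0 of 23 cytokine and NF-kappaB genes either way (median −0.15), and 1 of 26 interferon and MHC class I genes was higher (median −0.12). Of the 7 sirtuin genes 0 reached an unadjusted p under 0.05 (median 0.23).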

How the data were processed

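Read counts and FPKM per Ensembl gene were deposited by the authors for each of 12 islet libraries. Per the submitters' processing notes, TopHat2, Cufflinks, DESeq and the mm10 build were used, without versions; what counted the reads, and whether by strand, is not given in the sources used here. The deposited FPKM equalled count over gene length and library total for 257939 of 257939 nonzero values (relative tolerance 1e-05). Each file listed 54532 genes, with symbols and coordinates from GENCODE M21 for 54495.

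Counts of all 12 libraries (16037709 to 20864920 per library) were fitted with edgeR 4.0.16 in R 4.3.3: filterByExpr (minimum count 10, minimum total 15), TMM, 1 mean per group, the robust quasi-likelihood test, Benjamini-Hochberg adjustment over 16076 genes and a threshold of 0.05. SE is the log2 fold change over the square root of F. Within the KO groups, r of log2 CPM between libraries was 0.953 to 0.964, and no library was a duplicate. Alternatives used DESeq2 1.42.0, limma 3.58.1 on log2(FPKM + 1) and log2(FPKM + 0.1) for genes with a mean FPKM of 0.5 or more, other filters, the compared groups alone, a replicate block, offsets corrected for gene length and each library left out. Length correction together with leaving out HFD KO 3 was added after seeing the data.

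The 32 gene lists and all rules were chosen with earlier results of these data known. Genes named were 11 fixed islet genes, the called genes filled to 10 per direction by smallest p, the member of smallest p of each list (up to 3 where called) and 3 for the interaction. Some of these are not reported here. Fits were tested on simulated counts.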

Additional observations from a re-analysis of the deposited data

How the results depend on the processing

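The count of genes called between diets in KO islets was 7 with edgeR. It was 140 with DESeq2's Wald test, 2 and 3 with limma on log2(FPKM + 1) and log2(FPKM + 0.1), and 0 with the compared groups alone (1381 at an unadjusted p under 0.05). It was 7 with DESeq2 size factors, 9 without a filter, 7 with at least 1 CPM in 3 libraries and 6 with length offsets. Leaving out 1 library gave 0 to 801 (801 without HFD KO 3, 455 when length offsets were added). The fits with fewer libraries shown as 0 still had 921 to 2772 genes at an unadjusted p under 0.05. On the FPKM scale, which is not scaled for composition, the median of all genes was −0.17 and −0.20 in place of −0.03, and changes there are relative to that shift. The wild type diet contrast gave 0 except for 43 with DESeq2. The interaction gave 0 except for 31 with DESeq2 and 1 without a filter, and both stayed at 0 in all edgeR fits that left out 1 library. The cause of these differences was not tested.

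Replicate numbers did not pair the libraries: the correlations of deviations for same-numbered KO libraries were −0.11, 0.19 and 0.09. With the replicate number as a block 3 genes passed, 1 higher and 2 lower, of which Pdyn was also among the 7.

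Of 57 named genes, 53 kept their sign in all 22 alternatives. None of the exceptions was called. Ins2 was 0.028 with length offsets, −0.028 with these and without HFD KO 3, and 0.15 to 0.53 with 1 library left out. The others changed sign when 1 library was left out: Ppy ranged from −0.37 (without HFD KO 2) to 0.88, mt-Nd3 from −0.0064 (without HFD KO 1) to 0.70 and Gzma from −3.51 to 0.62 (without STD KO 3). The part of depth in these counts was not tested.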

Other observations

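Genes outside the lists also stood apart between diets in KO islets. Those given here were picked after their values were seen, among genes that DESeq2 called, and none passed in edgeR with all libraries (adjusted p = 0.200 to 0.293). Mmp12, the elastase of macrophages, stood at 1.13, 2.16 and 1.61 CPM in STD KO 1 to 3 and at 29.1, 10.1 and 7.57 CPM in HFD KO 1 to 3, a log2 fold change of 3.25 (SE 0.67, DESeq2 adjusted p = 0.000207; 1.496 in wild type islets). Like Trem2 and Gpnmb it was higher in each high fat library than in any standard diet library. Ckb, the brain creatine kinase that buffers ATP, measured 75.7, 103 and 85.2 CPM against 208, 141 and 150 CPM (0.92), and Gatm, which makes the creatine precursor guanidinoacetate, 90.4, 111 and 97.6 CPM against 242, 212 and 152 CPM (1.02). Both genes were separated between diets, and their wild type values were 0.42 and −0.01.

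Fkbp11, a prolyl isomerase of the endoplasmic reticulum, measured 46.0, 71.1 and 50.4 CPM against 197, 206 and 81.3 CPM (log2 fold change 1.53, DESeq2 adjusted p = 0.00148), and Sec11c, a subunit of the signal peptidase, 124, 173 and 124 CPM against 344, 447 and 181 CPM (1.21, DESeq2 adjusted p = 0.00547). In both, HFD KO 3 was the lowest high fat library but above all standard diet libraries. Kdelr3, a receptor that returns proteins to the endoplasmic reticulum, had a log2 fold change of 0.79. On the lower side stood the inositol trisphosphate receptor Itpr2 (−0.66), the protein kinase C gene Prkcb (−0.73), the calcineurin target Nfatc2 (−0.78) and the potassium leak channel Kcnk3 (−0.61). The wild type values of Itpr2 and Prkcb had the opposite sign (0.45 and 0.19), and no interaction passed (adjusted p = 0.414 and 0.621). Without HFD KO 3, edgeR called each of the genes given with values here except Itpr2 and Kcnk3 (adjusted p = 0.0702 and 0.0513).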
